A study of Mus musculus with 6 samples.

Results

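The laminin, nidogen and perlecan genes are 10 genes that encode proteins of the basement membrane: the laminin alpha chains Lama3, Lama4 and Lama5, the beta chains Lamb1, Lamb2 and Lamb3, the gamma chain Lamc1, the nidogens Nid1 and Nid2, and perlecan (Hspg2). They were taken by gene symbol from a table of 49568 genes counted in whole mouse lung, and all 10 were found and had enough counts to be tested. Poly(A) RNA was sequenced from 3 TNF-Tg and 3 WT lungs, one library per mouse. The TNF-Tg line carries human TNF-α as a single-copy, overexpressed transgene and serves as a model of arthritis and pulmonary hypertension, and WT mice were littermates without it. All 6 mice were female, on a C57BL/6 background and 4 months old. The comparison asks how the genes of the lung basement membrane differ in level between mice with and without chronic TNF overexpression.

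The basement membrane is the thin sheet of matrix under the epithelium and endothelium and around muscle and fat cells, and in the alveolus the sheets of both cell layers lie fused between air and blood. Laminins are its organizing proteins, each a trimer of an alpha, a beta and a gamma chain, and the chains that join decide where a trimer lies and which receptors it binds. Nidogens bind laminin and collagen IV, and perlecan is a large proteoglycan whose heparan sulfate chains bind growth factors as well as laminin and nidogen.

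Of the 10 genes, 6 differed between the genotypes, and they did not move in one direction. Perlecan and Nid2 were higher in TNF-Tg lungs, by 1.48-fold and 1.54-fold. Lama3, Lamb2, Lamb3 and Lama5 were lower, by 2.92-fold, 1.87-fold, 1.70-fold and 1.29-fold. Lamb1, Nid1, Lama4 and Lamc1 had lower means in TNF-Tg lungs, but did not pass an adjusted p-value of 0.05 (edgeR's quasi-likelihood test, Benjamini-Hochberg adjustment over 19199 genes), and for each of them the range of the 2 genotypes overlapped. The genotypes differ in a large share of all genes: 47.4% of the genes tested passed the same threshold, 24.0% higher and 23.4% lower in TNF-Tg lungs, against 6 of these 10 (2 higher, 4 lower). The groups did not overlap for 6 of the 10 genes (2 higher, 4 lower) and for 58.7% of all genes (30.6% higher, 28.1% lower). At an absolute log2 fold change of at least 1, a limit that 22.5% of all genes tested passed together with the adjusted p, only Lama3 remained of the 10. At an unadjusted p under 0.05, 7 of the 10 genes (2 higher, 5 lower) and 54.8% of all genes (28.2% higher, 26.6% lower) would be counted. The 10 genes had a median log2 fold change of -0.39, and all genes tested one of 0.03. Whole lung is a mixture of cells, so fewer cells of a type and less RNA per cell cannot be told apart.

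Some libraries stood apart. WT replicate 3 had the lowest WT value in 10 of the 10 genes, whereas it was the lowest WT lung for 37.3% of all genes tested. Results of the 10 genes are therefore given with and without it where it changes a call. WT replicate 1 had 3498 summed CPM (counts scaled to library size) of 8 squamous epithelium markers against 0.718 to 4.69 in the other 5 lungs, and 1542 CPM of 6 skeletal muscle markers against 16.0 to 35.6. WT replicate 3 had 272.5 CPM of B and plasma cell markers against 76.2 and 102.2 in the other WT lungs. Its T cell markers summed to 62.2 CPM against 34.4 and 39.5. TNF-Tg replicate 1 had 5.22% of its counts on Gm42418, against 0.0774% to 0.274% elsewhere, and with Gm42418 removed from every lung the same number of the 10 genes, 6, passed. Total counts ran from 25396923 to 32529408 per lung. Values are given below as normalized counts, which are counts scaled to library size with edgeR's TMM method and to the mean library of 30282387 counts. Markers of the labelled tissue were present in every lung, with 15640 to 26890 CPM summed over 7 alveolar type 2 genes. The table has no row for the human transgene. Mouse Tnf stood at 140, 220 and 383 normalized counts in TNF-Tg lungs and 15.2, 13.4 and 31.1 in WT lungs, which is no check of the transgene.

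**Figure D1:**
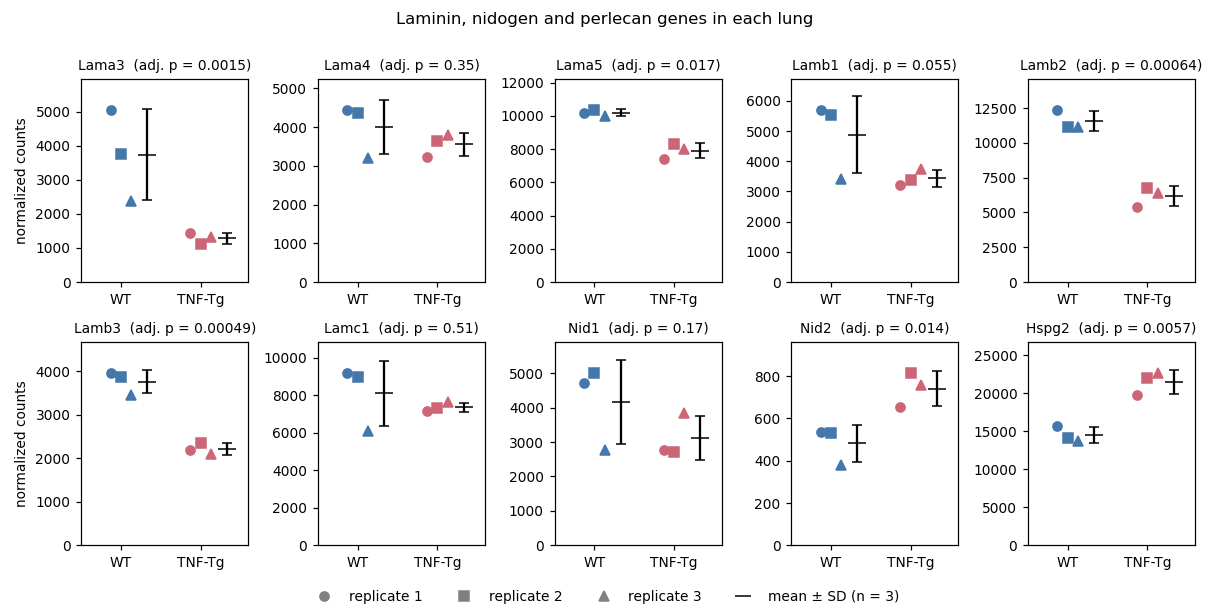
Normalized counts of the 10 genes in each lung (y axis, from 0 in every panel), WT on the left and TNF-Tg on the right, with a symbol per replicate number and the mean ± SD of 3 lungs. The TNF-Tg points lie apart from and under the WT points for Lama3, Lama5, Lamb2 and Lamb3, apart from and above them for Nid2 and Hspg2, and among them for Lama4, Lamb1, Lamc1 and Nid1, where WT replicate 3 is far under the other WT lungs.

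The bases before the first annotated exon are shown for 4 of the genes. They let genes that rose (Hspg2), fell (Lama5, Lamb2) or missed the threshold (Lamb1) be set side by side at the DNA level. Sequences are from RefSeq (GRCm38.p6), 5′ to 3′ on the gene's strand, and run up to the base before the gene's first exon in GENCODE M21. The stretches therefore differ in length and end at unlike distances from the RefSeq start, which limits comparison of their make-up. Entries of 6 genes were searched (Lama5, Lamb1, Lamb2, Lamb3, Nid1 and Hspg2). Capitals mark matches on either strand to a GC box (GGGCGG, or CCGCCC on the other strand) or a CCAAT box (CCAAT, or ATTGG on the other strand). The stretches are chr4:137468553-137468768 (plus strand) for Hspg2, chr2:180225860-180226109 (minus strand) for Lama5, chr9:108479612-108479735 (plus strand) for Lamb2 and chr12:31265043-31265233 (plus strand) for Lamb1.
Hspg2: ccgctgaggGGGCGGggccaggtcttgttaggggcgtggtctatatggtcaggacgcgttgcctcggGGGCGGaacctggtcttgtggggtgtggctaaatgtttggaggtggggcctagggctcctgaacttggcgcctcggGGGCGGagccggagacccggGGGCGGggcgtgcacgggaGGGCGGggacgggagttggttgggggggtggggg
Lama5: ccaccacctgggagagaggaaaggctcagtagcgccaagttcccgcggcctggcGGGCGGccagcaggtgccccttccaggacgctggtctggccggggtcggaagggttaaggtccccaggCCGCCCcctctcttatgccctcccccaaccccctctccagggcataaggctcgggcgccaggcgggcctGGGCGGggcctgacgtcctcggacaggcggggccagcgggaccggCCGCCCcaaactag
Lamb2: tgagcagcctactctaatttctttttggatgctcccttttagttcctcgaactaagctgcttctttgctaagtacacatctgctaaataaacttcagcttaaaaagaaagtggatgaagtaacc
Lamb1: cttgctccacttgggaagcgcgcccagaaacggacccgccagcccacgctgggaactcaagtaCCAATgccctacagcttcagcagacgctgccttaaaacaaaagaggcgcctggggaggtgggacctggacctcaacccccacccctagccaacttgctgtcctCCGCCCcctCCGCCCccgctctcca
The Hspg2 stretch held 5 GC boxes in 216 bases with 70.8% G and C, and the Lama5 stretch 4 in 250 bases with 72.4%. The Lamb1 stretch held 2 GC boxes and 1 CCAAT box in 191 bases. The Lamb2 stretch was of another make, with 37.9% G and C in 124 bases and none of the motifs searched. The Nid1 window held 1 GC box and 1 CCAAT box. The Lamb3 windows, which lie inside the gene span given below, held none of the motifs. Hence Hspg2, which rose, and Lama5, which fell, carried several GC boxes, while Lamb2 and Lamb3, which also fell, carried none. In the RefSeq windows around the start, the GC box was found in 35.66% and the CCAAT box in 37.41% of 32851 mouse promoters. A TATA box (TATAAA, 13.62% of promoters), an AP-1 site (TGANTCA, 7.81%) and an NF-κB site (1.63%) were searched on both strands too. None of these last motifs was in the windows of the 6 genes, which says only that these letters are not in these windows.

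Lama3 and Lamb3 encode an alpha and a beta chain of the laminin of epithelia, which anchors epithelial cells to the matrix through hemidesmosomes. Lama3 (chromosome 18, 12333819 to 12583013 on the plus strand of GRCm38) had 1427, 1103 and 1324 normalized counts in TNF-Tg lungs and 5058, 3760 and 2391 in WT lungs. Every TNF-Tg lung was under every WT lung, and the WT lungs themselves spread over a wide range, with the lung high in squamous markers at the top. The means were 1284 ± 166 and 3736 ± 1333 (SD, n = 3), a log2 fold change of -1.54 ± 0.25 (SE, adjusted p = 0.00151, edgeR). Without WT replicate 1 the log2 fold change of Lama3 was -1.28 (adjusted p = 0.00192), so the difference was smaller without that lung but still passed the threshold. It passed in each of the 6 fits that left out a single lung, with log2 fold changes from -1.79 to -1.28.

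Lamb3 (chromosome 1, 193207699 to 193343878, plus strand) had 2188, 2363 and 2091 normalized counts in TNF-Tg lungs and 3961, 3876 and 3462 in WT lungs. Both groups were tight and lay far apart, at 2214 ± 138 and 3767 ± 267 (SD, n = 3). The log2 fold change was -0.77 ± 0.10 (SE, adjusted p = 0.000488, edgeR) and passed with any lung left out. Lama3 and Lamb3 therefore both fell, Lama3 by more in the fitted values, a difference between genes that was not tested.

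Lamb2 (chromosome 9, 108479736 to 108490530, plus strand) encodes the beta chain best known from the glomerulus and the neuromuscular junction, which joins alpha chains such as Lama4 and Lama5 with Lamc1. It had 5393, 6774 and 6413 normalized counts in TNF-Tg lungs and 12388, 11146 and 11115 in WT lungs. The highest TNF-Tg lung was far under the lowest WT lung. The means were 6193 ± 717 and 11550 ± 726 (SD, n = 3), which gave a log2 fold change of -0.90 ± 0.12 (SE, adjusted p = 0.00064, edgeR), past the threshold with any lung left out. Lamb2 was also the one of the 10 genes whose level per length was highest in WT lungs.

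Lama5 (chromosome 2, 180176373 to 180225859, minus strand) encodes the alpha chain most widely spread in adult basement membranes, including those of the alveolus. It had 7426, 8318 and 7985 normalized counts in TNF-Tg lungs and 10204, 10374 and 9965 in WT lungs. The groups did not overlap, but the difference was small. The means were 7910 ± 451 and 10181 ± 205 (SD, n = 3), a log2 fold change of -0.37 ± 0.10 (SE, adjusted p = 0.0170, edgeR). Without TNF-Tg replicate 1 or WT replicate 2 the adjusted p of Lama5 rose to 0.0526 and 0.0588, and without the lungs numbered 1 of both genotypes it was 0.134.

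Lama4 (chromosome 10, 38965515 to 39110188, plus strand) encodes the alpha chain of endothelial and muscle basement membranes, and no change of it passed the threshold. Its normalized counts were 3234, 3643 and 3800 in TNF-Tg lungs and 4451, 4370 and 3207 in WT lungs. WT replicate 3 lay under all 3 TNF-Tg lungs, and the other WT lungs above all 3. The log2 fold change was -0.17 ± 0.14 (SE, adjusted p = 0.347, edgeR) with all lungs and -0.32 (adjusted p = 0.0432) without WT replicate 3.

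Lamc1 (chromosome 1, 153218922 to 153332786, minus strand), the gamma chain of most laminins, behaved like Lama4. It had 7148, 7318 and 7611 normalized counts in TNF-Tg lungs and 9179, 8981 and 6111 in WT lungs. The TNF-Tg lungs were closely grouped, at 7359 ± 234, between WT replicate 3 and the other WT lungs (8090 ± 1717, SD, n = 3). The log2 fold change was -0.14 ± 0.16 (SE, adjusted p = 0.505, edgeR), and -0.31 (adjusted p = 0.0395) without WT replicate 3.

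Lamb1 (chromosome 12, 31265234 to 31329644, plus strand) encodes the other beta chain that pairs with Lamc1, and is the beta chain of the embryonic and of many vascular laminins. It had 3198, 3377 and 3730 normalized counts in TNF-Tg lungs and 5709, 5523 and 3424 in WT lungs. WT replicate 3 lay between the TNF-Tg lungs. The log2 fold change of -0.51 ± 0.19 (SE) just missed the threshold (adjusted p = 0.0550, edgeR). It passed without WT replicate 3 (-0.72, adjusted p = 0.00161) and with DESeq2 (adjusted p = 0.00818). In edgeR it also passed with size factors of DESeq2 (adjusted p = 0.0442) and in an unfiltered table (0.0291). The same held with a minimum of 10 counts per lung (0.0472) and in a robust fit (0.0431). It missed with total counts alone (0.0565), with Gm42418 removed (0.0547), with a replicate block (0.115) and with limma-voom (0.0671).

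Of the nidogens, 1 passed the threshold. Nid1 (chromosome 13, 13437551 to 13512269, plus strand), which binds the gamma chain Lamc1 and collagen IV, had 2783, 2711 and 3845 normalized counts in TNF-Tg lungs and 4723, 5003 and 2755 in WT lungs. WT replicate 3 lay among the TNF-Tg lungs, and the other WT lungs lay above all 3 of them. Its log2 fold change was -0.42 ± 0.23 (SE, adjusted p = 0.174, edgeR), and -0.65 (adjusted p = 0.0172) without WT replicate 3.

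Nid2 (chromosome 14, 19751265 to 19811787, plus strand), the second nidogen, had 653, 815 and 757 normalized counts in TNF-Tg lungs and 537, 530 and 380 in WT lungs. All 3 TNF-Tg lungs were above all 3 WT lungs. The means were 741 ± 82.0 and 482 ± 88.6 (SD, n = 3), a log2 fold change of 0.62 ± 0.16 (SE, adjusted p = 0.0145, edgeR). Without TNF-Tg replicate 2 it was 0.55 (adjusted p = 0.0574). Nid2 shares 6.54% of its 100-base windows with Rtraf, a gene on the other strand that overlaps it and was itself higher in TNF-Tg lungs (2838 ± 365 against 2044 ± 205 normalized counts, log2 fold change 0.47 ± 0.13, adjusted p = 0.0154, edgeR). The strand setting of the counting is not given in the sources used here, and the part of these shared windows in the Nid2 counts was not tested. Of the other genes, Lama3 (0.93%) and Nid1 (1.49%) shared windows with predicted genes, and the remaining 7 shared none.

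Perlecan (Hspg2, chromosome 4, 137468769 to 137570630, plus strand) had the highest counts of the 10 genes and was higher in TNF-Tg lungs. Its normalized counts were 19719, 22018 and 22663 in TNF-Tg lungs and 15671, 14059 and 13707 in WT lungs. The lowest TNF-Tg lung was above the highest WT lung. The means were 21467 ± 1548 and 14479 ± 1047 (SD, n = 3), a log2 fold change of 0.57 ± 0.12 (SE, adjusted p = 0.00568, edgeR), past the threshold with any lung left out.

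The other laminin chains described here, Lama1, Lama2 and Lamc3, all passed the threshold. Lama2, the alpha chain of muscle and nerve, was lower (1107 ± 89.0 against 1999 ± 500 normalized counts, log2 fold change -0.86 ± 0.18, adjusted p = 0.00564, edgeR). Lama1, an alpha chain of the embryo with few counts in adult lung, was lower as well (42.6 ± 15.0 against 90.3 ± 7.12, -1.07 ± 0.28, adjusted p = 0.0150). Lamc3 was higher (1151 ± 54.7 against 872 ± 130 normalized counts, 0.40 ± 0.13, adjusted p = 0.0311), but it lost significance when any TNF-Tg lung was left out.

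**Figure D2:**
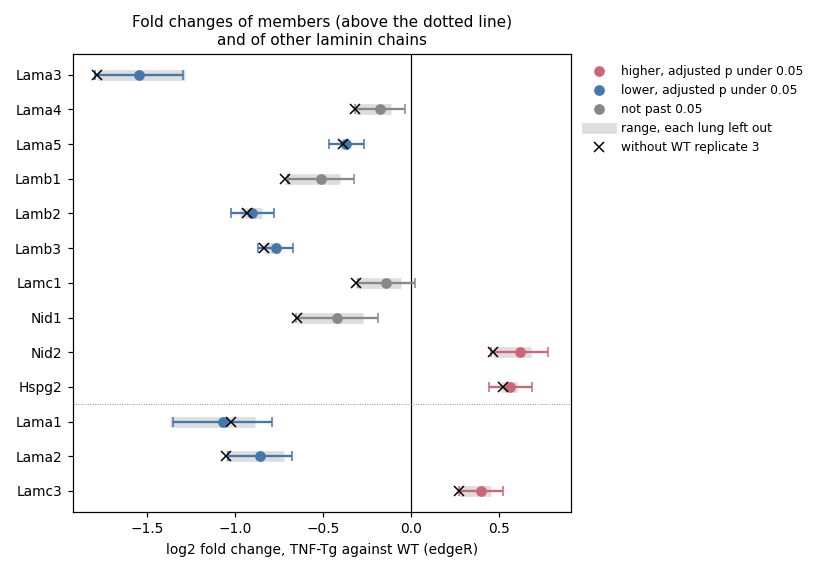
Log2 fold changes of the 10 genes (above the dotted line) and of 3 other laminin chains, TNF-Tg against WT, with the SE as error bar. Grey bands give the range with each lung left out in turn and crosses the value without WT replicate 3. The crosses of Lama4, Lamb1, Lamc1 and Nid1 lie left of their points, at -0.32, -0.72, -0.31 and -0.65.

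Without WT replicate 3 all 10 genes passed the threshold, 2 higher and 8 lower, in a fit that called 46.6% of all genes tested (23.3% higher, 23.4% lower). That lung was singled out by its low values in these same 10 genes. The calls gained without it follow in part from that choice and are no separate support for a difference. Without any other single lung 5 or 6 of the 10 passed, in fits that called 37.3% to 41.9% of all genes. The direction of each of the 10 genes was the same in every fit with a lung left out. With DESeq2, 7 of the 10 passed, Lamb1 among them, against 48.1% of all genes.

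Levels can be compared between genes only per length, so CPM were divided by the length of each gene's exons (CPM per kb). In WT lungs Lamb2 stood first, at 62.7 ± 3.94 CPM per kb (SD, n = 3), followed by Hspg2 (33.4 ± 2.42), Lamc1 (32.3 ± 6.86) and Lama5 (29.5 ± 0.59), whose ranges overlapped from one to the next. Nid1, Lamb3, Lamb1, Lama3 and Lama4 followed between 19.8 and 10.97 CPM per kb, again with overlapping neighbours, and Nid2 was last at 3.08 ± 0.57. In TNF-Tg lungs Hspg2 stood first, at 49.6 ± 3.57 CPM per kb. Lamb2 (33.6 ± 3.89) and Lamc1 (29.4 ± 0.93) came next and overlapped, then Lama5 (22.9 ± 1.31) and Nid1 (14.8 ± 3.02). At the bottom Lama3 (3.95 ± 0.51) overlapped Nid2 (4.73 ± 0.52). Lamb2 and Hspg2 thus changed places at the top, without overlap in either genotype. Lama3, which overlapped Lama4 and stood above Nid2 in WT lungs, lay under Lama4 and overlapped Nid2 in TNF-Tg lungs. Lamb3 and Lamb1 changed places too, but overlapped in both genotypes.

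The make-up of each chain class, as the share of a chain in the summed CPM per kb of its class within a lung, does not depend on library scaling. Among the 5 alpha chains, Lama5 made up 57.9%, 60.8% and 57.6% in TNF-Tg lungs and 47.7%, 51.3% and 59.9% in WT lungs. The Lama5 shares overlapped, although its counts were lower. Lama3 fell from 25.1%, 19.7% and 15.2% in WT lungs to 11.8%, 8.55% and 10.1% in TNF-Tg lungs, and Lama4 took 23.8% to 25.9% in TNF-Tg against 18.2% to 20.4% in WT lungs. Neither of these pairs of ranges overlapped. The Lama4 share was larger although its mean count was lower, at 3559 against 4010 normalized counts, which did not pass the threshold. The Lama3 share of 25.1% was in WT replicate 1, the lung high in squamous markers.

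Among the 3 beta chains the shares lay closer together. Lamb2 made up 57.6% to 61.5% of the class in TNF-Tg lungs and 61.6% to 67.8% in WT lungs. Lamb1 made up 18.8% to 21.5% and 12.8% to 18.7%, so that the ranges of both nearly met. Lamb3 overlapped, at 18.1% to 21.5% and 18.7% to 19.7%. The Nid2 share of the nidogens was 20.9% to 28.7% in TNF-Tg lungs and 12.4% to 15.6% in WT lungs. Summed over each class, TNF-Tg lungs held 39.0 ± 1.59 CPM per kb of alpha chains against 56.3 ± 7.20 (SD, n = 3) and 56.1 ± 4.69 of beta chains against 97.8 ± 8.52. These sums did not overlap between genotypes, while those of the nidogens did (19.5 ± 3.12 against 22.9 ± 6.39).

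**Figure D3:**
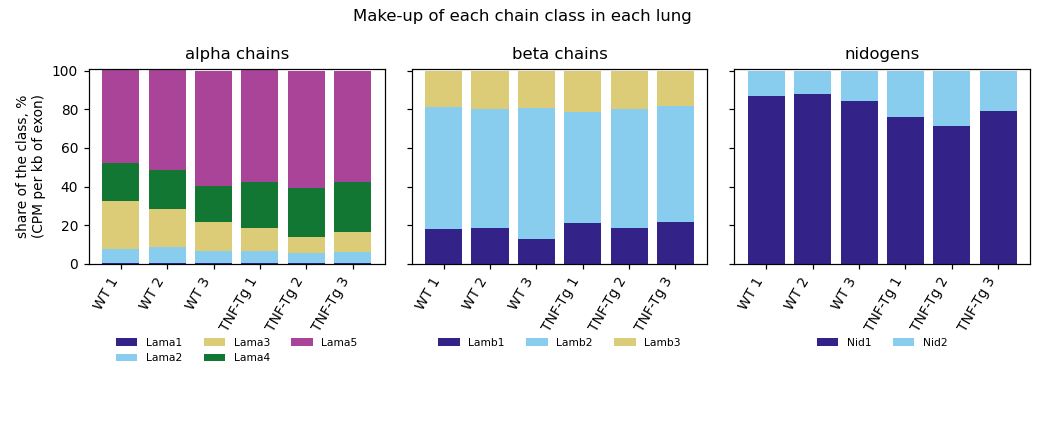
Share of each gene in the summed CPM per kb of its class (y axis, percent) in each lung, for the alpha chains, the beta chains and the nidogens. The Lama3 and Nid1 segments are smaller in all 3 TNF-Tg lungs than in any WT lung, those of Lama4 and Nid2 are larger, and those of Lama5 and Lamb3 overlap, while Lamb1 and Lamb2 are separated by a narrow margin.

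Ratios of 6 pairs of the genes within each lung were tested between genotypes, with an exact permutation test over lungs (two-sided), which for 3 lungs against 3 cannot go below p = 0.1. The Lama3 to Lama5 ratio of counts was 0.192, 0.133 and 0.166 in TNF-Tg lungs and 0.496, 0.363 and 0.240 in WT lungs, a difference of -1.12 on the log2 scale (exact permutation p = 0.1, 0.15 adjusted over the 6 ratios). For Nid2 to Nid1 the ratios were 0.235, 0.301 and 0.197 against 0.114, 0.106 and 0.138, a log2 difference of 1.02 with the same p-values from the exact test. For Hspg2 to Lamc1 they were 2.76, 3.01 and 2.98 against 1.71, 1.57 and 2.24 (log2 difference 0.68, the same p-values). None of these 3 ratios overlapped between genotypes, and each reached the smallest p that the design allows.

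The Lamb2 to Lamb1 ratio did not overlap either, at 1.69, 2.01 and 1.72 in TNF-Tg lungs and 2.17, 2.02 and 3.25 in WT lungs, but its groups nearly touched (log2 difference -0.43, exact permutation p = 0.1, 0.15 adjusted). Lama5 to Lama4 (log2 difference -0.21) and Lamb3 to Lamb2 (0.14) overlapped (exact permutation p = 0.2, 0.2 adjusted, for both). The difference of Lamb2 to Lamb1 was -0.22 without WT replicate 3, and that of Lama5 to Lama4 was -0.07. The difference of Lamb3 to Lamb2 was 0.05 without TNF-Tg replicate 1 and 0.21 without TNF-Tg replicate 3. The Lama5 to Lama4 difference ranged to -0.29, without WT replicate 1.

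Markers of the cell types that rest on or make these basement membranes differed between the genotypes. Summed over 6 alveolar type 1 markers, TNF-Tg lungs held 1178 to 1405 CPM against 3539 to 3880 in WT lungs, and all 6 were lower. The endothelial markers summed to 1614 to 1851 against 3165 to 3657 CPM, with 8 of 8 lower. The median log2 fold change was -1.70 for the type 1 markers and -1.16 for the endothelial markers. In these same lungs Lama3, Lamb2, Lamb3 and Lama5 were lower, and Lama4, Lamb1, Lamc1 and Nid1 missed the threshold. Whole-lung counts do not assign these genes to a cell type. Airway epithelium markers summed to 5060 to 6691 against 14520 to 23910 CPM (4 of 4 lower), and alveolar type 2 markers to 15640 to 19990 against 22250 to 26890 CPM (3 of 7 lower).

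Mesenchymal markers were less uniform. Summed fibroblast markers stood at 398 to 468 against 1465 to 1785 CPM (5 of 6 lower) and smooth muscle markers at 549 to 574 against 975 to 1178 CPM (4 of 5 lower). Pericyte markers stood at 399 to 499 against 534 to 667 CPM (3 of 7 lower, 1 higher), and mesothelium markers overlapped, at 68.7 to 120 against 95.1 to 220 CPM (1 of 3 lower). Perlecan and Nid2 were thus higher in lungs in which the summed markers of endothelium, fibroblasts and smooth muscle were lower. Most leukocyte markers were higher, with macrophage markers at 8486 to 9277 against 2853 to 2884 CPM (5 of 5 higher), B and plasma cell markers at 1937 to 4048 against 76.2 to 272.5 CPM (4 of 4) and T cell markers at 322 to 465 against 34.4 to 62.2 CPM (4 of 5). In TNF-Tg lungs most of these last 2 sums came from single genes, Jchain in the B and plasma cell list (log2 fold change 5.16) and Cd4 in the T cell list (4.84), while Cd3e (0.23) did not pass.

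Muscle and fat cells carry basement membranes too. Cardiac muscle markers summed to 244 to 302 CPM in TNF-Tg and 822 to 1129 CPM in WT lungs (5 of 5 lower). Fat cell markers summed to 10.4 and 7.49 CPM in TNF-Tg replicates 1 and 2, and to 121 CPM in TNF-Tg replicate 3, against 73.5 to 158 CPM in WT lungs. Of the squamous markers Krt13, Dsg3 and Sprr3 had 0 counts in at least 1 lung. No list had all of its defining markers at 0 in either genotype. The part of any of these cell types in the differences of the 10 genes was not tested.

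**Figure D4:**
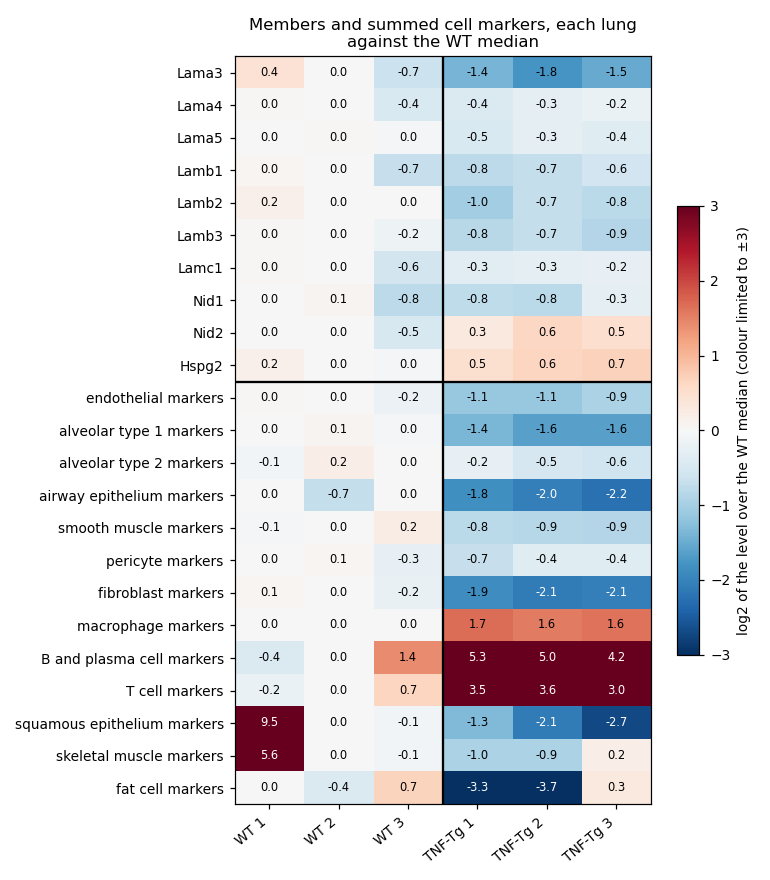
Each of the 10 genes (upper rows) and the summed CPM of the marker lists (lower rows) in each lung, as log2 of the level over the WT median, with the colour limited to 3 on either side of 0. WT replicate 3 is under 0 in all 10 gene rows, from -0.78 for Nid1 to -0.004 for Lamb2, and WT replicate 1 stands out in the squamous and skeletal muscle rows (9.54 and 5.63).

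Other genes of the pathway were read from 5 lists, of which 54.5% (dystroglycan enzymes) to 84.6% (proteases) of the genes tested passed, against 47.4% of all genes, and nothing particular to a list is drawn from these counts. Of 21 other basement membrane proteins tested, 14 were lower, 2 were higher and 5 did not pass, and their median log2 fold change was -0.96. The falls were led by Frem1 (-3.18 ± 0.23, SE, adjusted p = 2.86e-05, edgeR for all values of this paragraph), of the skin and epithelial matrix, Npnt (-2.51 ± 0.17, adjusted p = 2.39e-05), an integrin ligand, and Ntn4 (-1.97 ± 0.10, adjusted p = 7.38e-06), a netrin that binds laminin. Col15a1 (1.87 ± 0.11, adjusted p = 1.08e-05) and Col18a1 (0.54 ± 0.14, adjusted p = 0.0120) were the 2 that rose, both collagens with heparan or chondroitin sulfate chains. Without TNF-Tg replicate 1 Col18a1 did not pass (adjusted p = 0.0521). The collagen IV chains are named after their values were seen. Col4a3, Col4a4, Col4a5 and Col4a6 fell (-1.25, -1.30, -1.72 and -1.89), and Col4a1 (0.51, adjusted p = 0.0707) and Col4a2 (0.40, adjusted p = 0.0865) did not pass in edgeR, although their groups did not overlap and DESeq2 called both higher (adjusted p = 0.0139 and 0.0262).

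Of 11 laminin receptors, 5 were lower, 2 higher and 4 did not pass (median -0.36). Integrin Itga3 (-1.87 ± 0.10, adjusted p = 7.87e-06, edgeR), the receptor for Lama3 and Lama5 trimers, Bcam (-1.62 ± 0.11, adjusted p = 2.51e-05), which binds Lama5, and Itgb4 (-0.89 ± 0.13, adjusted p = 0.000818), of the hemidesmosome, fell furthest. Itga2 (1.09 ± 0.25, adjusted p = 0.00761) and the syndecan Sdc4 (0.53 ± 0.15, adjusted p = 0.0236) were higher, the latter in only 2 of the 6 fits that left out a lung. Of 11 enzymes that glycosylate dystroglycan, the sugar-dependent laminin receptor, 5 were lower, 1 higher and 5 did not pass (median -0.33). Pomgnt2 (-0.94), Pomt1 (-0.68) and Pomgnt1 (-0.59) fell and Rxylt1 (0.60) rose.

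Of 18 enzymes that build, edit or cut heparan sulfate, the sugar that perlecan carries, 8 were higher, 5 lower and 5 did not pass (median 0.17). Heparanase Hpse (1.96 ± 0.16, adjusted p = 5.42e-05, edgeR), which cuts the chains, rose most, followed by Xylt1 (1.12), which starts them, and Ext1 (0.85), which extends them. Hs3st1 (-1.98), Ndst1 (-1.44) and Hs6st2 (-1.27), which add sulfate, fell, Hs6st2 in only 4 of the 6 fits that left out a lung (adjusted p = 0.0696 without WT replicate 3, edgeR). Of the other enzymes of the list that add sulfate, named after their values were seen, Hs2st1 (-1.05) fell, and Hs6st1 (0.67) and Ndst2 (0.345) rose, Ndst2 also in only 4 of the 6 such fits. Of 14 proteases that can cut basement membrane proteins, 13 were tested: 8 were higher, 3 lower and 2 did not pass (median 0.77). Mmp12 (5.71 ± 0.21, adjusted p = 2.72e-06), Mmp9 (4.99 ± 0.18, adjusted p = 2.72e-06) and Ctss (3.22 ± 0.22, adjusted p = 2.15e-05), proteases of macrophages and neutrophils, rose most. Tll1 (-1.86) and Mmp2 (-0.49) fell, Mmp2 in only 2 of the 6 fits that left out a lung, and Elane, at 25.1 ± 8.55 normalized counts in WT lungs, was close to 0 in TNF-Tg lungs (0.755 ± 0.680). These lists stood in the same lungs as the rise of macrophage markers given above, whose part in them was not tested.

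**Figure D5:**
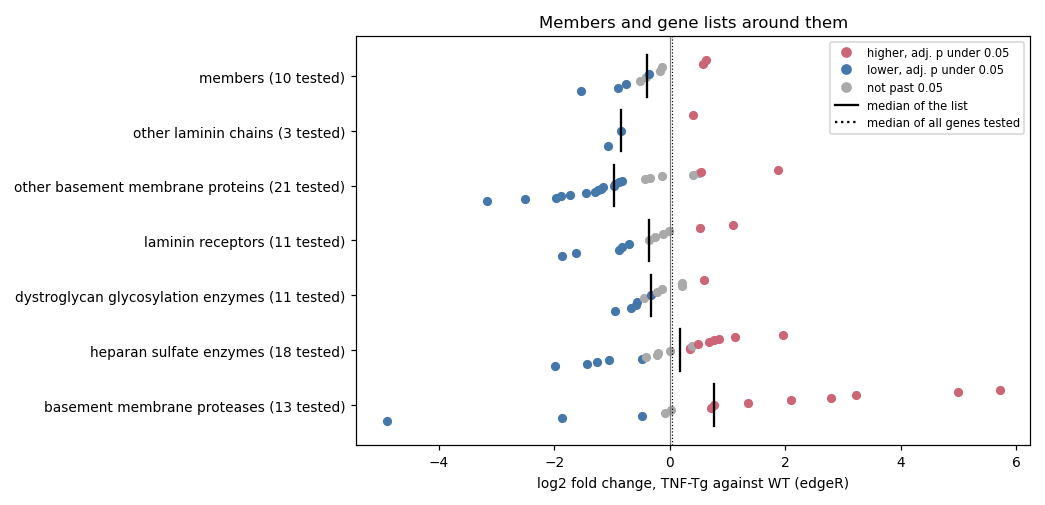
Log2 fold change (x axis, TNF-Tg against WT) of each tested gene in the 10 genes, the other laminin chains and the 5 lists, coloured by the adjusted p-value of edgeR, with the median of each list as a line and the median of all genes (0.03) dotted. The medians run from -0.96 for the other basement membrane proteins to 0.77 for the proteases, with the 10 genes at -0.39.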

How the data were processed

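Whole-lung RNA of 3 TNF-Tg and 3 WT mice was sequenced by the authors (stranded poly(A) libraries, single-end reads of 100 bases). Per the submitters' processing notes, reads were trimmed with Trimmomatic 0.36, mapped to GRCm38.p5 with STAR 2.5.2b and counted with featureCounts. The strand setting and annotation are not given in the sources used here. The authors deposited raw counts per gene symbol, without normalization, and every column was used. Stranded and unstranded counting differ where genes overlap.

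Counts were tested with edgeR 4.0.16 (R 4.3.3; filterByExpr, TMM, quasi-likelihood test, genotype as the only term, Benjamini-Hochberg adjustment at 0.05 over 19199 genes). Standard errors were the log2 fold change divided by the square root of F. The scripts were tested on simulated counts. Total counts set the level of 3 counts at 0.0922 to 0.118 CPM, which covers counting error only. Alternatives were DESeq2 1.42.0, limma-voom (limma 3.58.1), total counts alone, size factors of DESeq2, an unfiltered table, a minimum of 10 counts per lung, a robust fit, a replicate block, Gm42418 removed, each lung left out, the lungs numbered 1 left out (chosen after seeing the data) and an absolute log2 fold change of at least 1. Positions, exon lengths and shared 100-base windows are from GENCODE M21 (GRCm38). Rxylt1 was found under an older symbol (Tmem5). Some genes and the results that need them are not reported here.

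Named are the 10 genes, the other laminin chains, and from each further list the 3 largest rises and falls past the threshold. The collagen IV chains and further sulfate-adding enzymes, outside this rule, were named after their values were seen. The members, lists and tests were chosen with earlier results of these data known.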

Additional observations from a re-analysis of the deposited data

How the results depend on the processing

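The direction of all 10 genes was the same under every alternative. Of 208 alternative values for the 10 genes and 3 other laminin chains, 188 kept their side of the threshold, 9 passed it only in the alternative and 11 passed it only in the fit described. With an absolute log2 fold change of at least 1 required, 1 of the 10 genes was called in edgeR (Lama3; 0 higher, 1 lower), where at an unadjusted p under 0.05 without that limit 7 were (2 higher, 5 lower) and DESeq2 called 7. The same limit left 4320 of all genes (1980 higher, 2340 lower) and 29 of 77 genes of the other lists (10 higher, 19 lower), against 9096 and 56. Leaving out one lung at a time, between 5 and 10 of the 10 genes were called (1 to 2 higher, 3 to 8 lower), the 10 being without WT replicate 3 and the 1 higher without TNF-Tg replicate 2. Over all genes these fits called 7347 to 9164 (3392 to 4571 higher, 3734 to 4593 lower), and in the other lists 49 to 60 (17 to 22 higher, 30 to 38 lower). Without the lungs numbered 1 of both genotypes, 5 of the 10 genes (2 higher, 3 lower) and 6064 of 19440 genes (2689 higher, 3375 lower) were called. DESeq2 called 9233 genes and limma-voom 9032. The replicate numbers come from the labels of different mice, and same-numbered lungs did not deviate together (mean correlation across genes -0.13 over 3 pairs, 0.07 over the other 6). Deviations from means of 3 lungs are tied to each other, so these correlations cannot decide whether same-numbered lungs share more than a number. With the replicate number as a block, 7686 genes and 5 of the 10 were called (Lama5 at adjusted p = 0.0551), and 53 genes of the other lists. For the ratios, sign-flipping the same-numbered differences as the pairing would ask left the smallest exact permutation p at 0.25. The number of lungs, 3 a group, limits the precision.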

Other observations

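Leaving the rule for named genes aside, WT replicate 3 had the lowest WT value in 9 of 10 laminin chains, and TNF-Tg replicate 1 had the lowest value of its genotype in 7 of the 10 laminin, nidogen and perlecan genes, against 29.6% of all genes tested.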
